A study of Mus musculus with 20 samples.

Results

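The egg coat genes Zp1, Zp2 and Zp3, the egg protease gene Astl and the protease inhibitor gene Fetub were described in the mouse ovary, 5 of the 54838 genes listed in each count table. They were taken by name, as the genes of the zona pellucida and the regulators of its hardening, and all 5 were found by their Ensembl identifiers and passed the filter on low counts in every comparison. The zona pellucida is the glycoprotein coat that the growing oocyte secretes around itself, and sperm bind to it at fertilization. After fertilization the cortical granules of the egg release ovastacin, the protease encoded by Astl, which cleaves ZP2 and hardens the coat against further sperm. Fetuin-B, the product of Fetub, is a cystatin family inhibitor of ovastacin that is mostly secreted by the liver and prevents the coat from hardening too early.

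RNA was measured in whole ovaries of 20 female mice aged about 77 days by 3' mRNA sequencing, 5 animals in each of 4 groups, ctrl and FL1 in estrus and ctrl and FL1 in diestrus. FL1 is a Dummerstorf line selected over many generations for large litters, and ctrl is an unselected line from the same outbred founder population. Both lines are outbred, so the animals of a group are not genetically identical, and neither line was given a drug or carries a transgene. The stage was read from vaginal smears, the ovaries were freed of fat, tunica albuginea and oviduct, and ovulated oocytes lay outside the tissue sampled in estrus. The genotype label reads WT for ctrl and FL1 for FL1. The source name label reads FL1 for every library, ctrl included, and was not used.

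Each library held 5991223 to 10352718 counts, with a median of 6957533. The values below are CPM, the counts of a gene scaled to a common library total with the TMM method. Since each transcript gives reads from its 3' end only, CPM can be set side by side between genes without a correction for length. By their summed CPM, the listed genes of granulosa cells, corpora lutea and oocytes were present in every library. This did not hold for each gene, since Amh of the granulosa list and Figla of the oocyte list had libraries with 0 counts. The 5 oviduct genes examined summed to 0.522 to 5.25 CPM, and none of them had counts enough to be tested. In whole tissue, fewer cells of a type and less RNA per cell cannot be told apart, which holds for every value of the oocyte genes.

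The annotation places all members outside other genes. On GRCm38, Zp1 (ENSMUSG00000024734) lies on chromosome 19 at 10914287 to 10920632 and Zp2 (ENSMUSG00000030911) on chromosome 7 at 120126772 to 120145291, both on the minus strand. Zp3 (ENSMUSG00000004948) lies on chromosome 5 at 135980099 to 135988624, Astl (ENSMUSG00000050468) on chromosome 2 at 127338639 to 127357651 and Fetub (ENSMUSG00000022871) on chromosome 16 at 22918334 to 22939778, all on the plus strand. No annotated gene overlapped any of the 5 on either strand, and no other gene shared enough sequence with the last 300 nt of their transcripts to compete for reads.

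The 3 zona genes shared an unusually short transcript end that the choice of the genes did not use. In the annotated transcript with the longest coding part, the 3' untranslated region was 34 nt for Zp1, 49 nt for Zp2 and 13 nt for Zp3. Chosen the same way, this region had a median of 737 nt over 21736 coding genes. Of all coding genes, 6.43% had one as short as that of Zp1, 7.44% as that of Zp2 and 5.20% as that of Zp3. For Fetub it was 122 nt, which 14.1% of coding genes did not exceed, and for Astl it was 876 nt. Going by these transcripts, a 3' library of the zona genes reads mostly coding sequence.

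The start regions of Zp3, Astl and Fetub are shown because the zona promoters are known for E-boxes (CANNTG), the letters bound by FIGLA, the oocyte factor that switches on the zona genes together with a partner encoded by Tcf3. The sequences are those of RefSeq on GRCm38.p6, plus strand, from 250 bases before to 50 bases after the annotated start site. Entries were found for Zp3, for 2 start sites of Astl and for 2 of Fetub, of which the upstream one is printed. Capitals mark CANNTG and, for Fetub, TATAAA.
Zp3 chr5:135979855-135980154: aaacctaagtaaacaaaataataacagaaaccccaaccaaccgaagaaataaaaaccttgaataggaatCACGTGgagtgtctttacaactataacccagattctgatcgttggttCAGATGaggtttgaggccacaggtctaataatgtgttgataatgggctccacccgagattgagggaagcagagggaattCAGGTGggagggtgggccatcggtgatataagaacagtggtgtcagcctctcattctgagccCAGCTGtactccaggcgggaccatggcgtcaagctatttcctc
Astl, upstream start site, chr2:127338389-127338688: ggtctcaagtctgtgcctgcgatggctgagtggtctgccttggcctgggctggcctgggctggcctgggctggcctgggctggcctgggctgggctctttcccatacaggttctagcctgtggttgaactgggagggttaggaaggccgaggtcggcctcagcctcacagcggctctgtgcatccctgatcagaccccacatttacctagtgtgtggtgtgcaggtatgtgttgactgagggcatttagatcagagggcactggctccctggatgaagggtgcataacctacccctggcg
Astl, downstream start site, chr2:127341386-127341685: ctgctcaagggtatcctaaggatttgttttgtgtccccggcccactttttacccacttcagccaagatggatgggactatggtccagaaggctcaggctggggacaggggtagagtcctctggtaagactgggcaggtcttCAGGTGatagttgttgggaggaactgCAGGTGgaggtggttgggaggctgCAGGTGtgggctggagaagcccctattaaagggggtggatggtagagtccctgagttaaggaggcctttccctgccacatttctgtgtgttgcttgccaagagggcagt
Fetub, upstream start site, chr16:22918132-22918431: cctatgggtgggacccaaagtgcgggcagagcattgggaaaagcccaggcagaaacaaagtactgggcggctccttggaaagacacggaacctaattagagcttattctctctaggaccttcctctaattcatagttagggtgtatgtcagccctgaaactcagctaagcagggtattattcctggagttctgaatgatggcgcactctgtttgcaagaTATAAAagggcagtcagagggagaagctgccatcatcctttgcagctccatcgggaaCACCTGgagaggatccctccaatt

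The Zp3 window held 4 E-boxes, of which the one that begins 181 bases before the start site reads CACGTG, and 6.49% of 32851 mouse promoters of the same length held at least 4. CACGTG itself was in 7.15% of them. The downstream window of Astl held 3 matches, all CAGGTG within 109 bases of the start site, a number that 17.6% of promoters reached or exceeded, whereas the upstream window held none. The printed window of Fetub held 1 E-box, after its start site, and a TATAAA that begins 31 bases before the start site, a motif present in 13.6% of promoters. The other Fetub window, chr16:22919972-22920271, held 2 E-boxes and no TATAAA. At least 1 E-box was found in 72.3% of promoters. CANNTG reads the same on both strands, and the other motifs were searched on both. AAGGTCA, found in 4.72% of promoters, and GATAAG, found in 7.44%, matched none of these windows. These are matches of letters only, and reads from transcript ends cannot tell which start site was used.

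In the order of their mean levels over all libraries the zona genes came first. Over the 20 libraries Zp3 had a mean of 37.9 CPM, Zp2 of 35.2 CPM and Zp1 of 14.3 CPM, against a median of 22.0 CPM over 14154 genes with usable counts. Fetub followed with 6.62 CPM and Astl with 5.93 CPM. Zp3 and Zp2 were above 62.4% or more of these genes, Zp1 above 39.9%, Fetub above 25.6% and Astl above 24.1%. Zp3 and Zp2 each exceeded Zp1 in 20 of 20 libraries, and Zp1 exceeded Astl in 20 of 20. Zp3 and Zp2 were not separated by their spread, since Zp3 exceeded Zp2 in 13 of 20 libraries. The place of Fetub differed between the groups. Astl exceeded Fetub in 4 of 5 libraries of ctrl in estrus and 5 of 5 of ctrl in diestrus, but in 3 of 5 of FL1 in estrus and 0 of 5 of FL1 in diestrus. Zp1 exceeded Fetub in 5 of 5 libraries of each group but FL1 in diestrus, where it did so in 2 of 5 and the mean of Zp1 was 1.05 times that of Fetub.

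**Figure D1:**
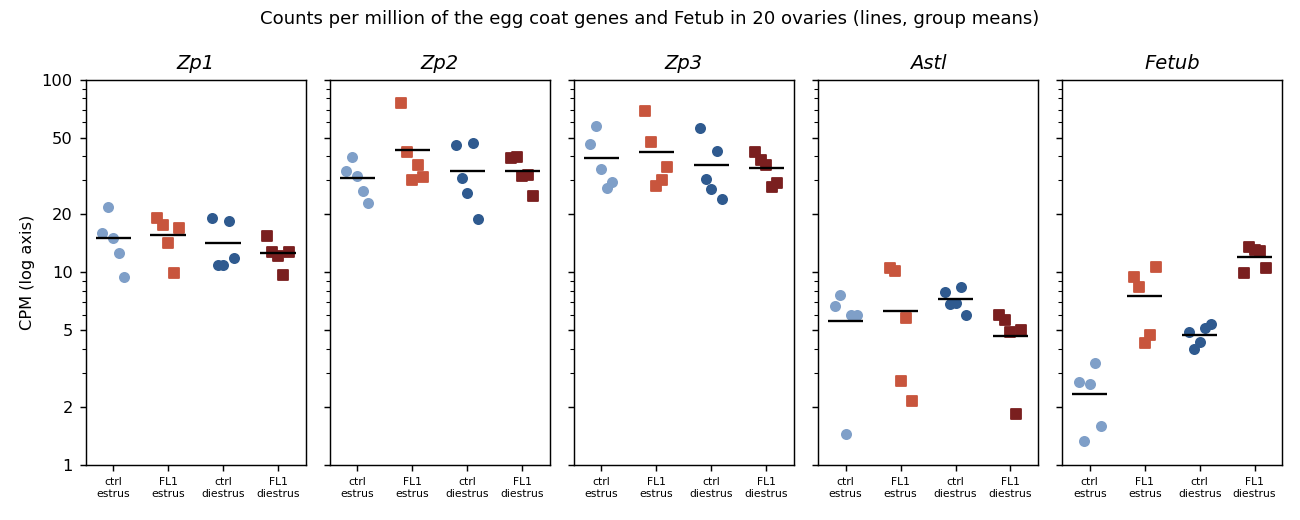
CPM of the 5 genes on a log axis, 1 point per ovary, circles for ctrl and squares for FL1, with a line at the mean of each group of 5. Fetub is the only one of the 5 whose ctrl and FL1 points are separate in both stages, with 1.32 to 3.39 against 4.30 to 10.6 CPM in estrus and 3.97 to 5.38 against 9.88 to 13.5 CPM in diestrus.

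The lines were compared first in estrus, the stage around ovulation. Fetub was stronger expressed in FL1, about 3-fold, whereas the values of the 3 zona genes and of Astl overlapped between the lines and none of them passed the test. In replicates 1 to 5, Fetub measured 2.68, 1.32, 2.61, 3.39 and 1.58 CPM in ctrl, which rest on 8 to 36 counts. In FL1 it measured 9.40, 8.40, 4.30, 4.72 and 10.6 CPM, which rest on 32 to 99 counts. Every FL1 ovary lay above every ctrl ovary, and the FL1 ovaries themselves fell into 3 higher and 2 lower values. The mean was 7.48 ± 2.82 CPM (SD, n = 5) in FL1 and 2.32 ± 0.850 CPM (SD, n = 5) in ctrl. By edgeR's quasi-likelihood test the log2FC was 1.65 (SE 0.35, 95% interval 0.85 to 2.45), with a Benjamini-Hochberg adjusted p of 0.0234 over 13374 genes. It was 1 of the 311 genes that passed, which are 2.33% of those tested, and 1.07% passed as stronger expressed in FL1. The exact permutation test, two-sided, gave p = 0.00794, the smallest value that 5 against 5 allows. Groups without any overlap were found for 4.89% of the genes tested. Fetub is among the genes the study had picked as differing between the lines in these same libraries, so its direction here is not independent evidence. The study also measured Fetub by qPCR in more animals per group and reported it higher in FL1 in both stages. It does not state that the qPCR animals were separate from the sequenced ones.

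The call for Fetub in estrus depended on the fit and on single libraries. With all 10 libraries it was lost with limma-voom (log2FC 1.56, adjusted p = 0.0613) and with the replicate number as a block in edgeR (log2FC 1.61, adjusted p = 0.0920). That block uses up residual degrees of freedom although the replicate numbers do not pair the animals. In edgeR without the block, the adjusted p rose above 0.05 when ctrl replicate 2, the lowest of all, was left out (log2FC 1.51, adjusted p = 0.0527), and when FL1 replicates 1, 2 or 5, the 3 highest, were left out (log2FC 1.56, 1.61 and 1.49, adjusted p = 0.0647, 0.0644 and 0.0687).

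Zp2, the sperm-binding protein that ovastacin cleaves, measured 33.5, 39.7, 31.6, 26.4 and 22.9 CPM in ctrl and 75.5, 42.1, 30.3, 35.9 and 31.3 CPM in FL1 in estrus. The groups overlapped, and FL1 replicate 1 stood far above all others. The log2FC of Zp2 was 0.48 (95% interval -0.07 to 1.03, edgeR adjusted p = 0.351), and it was 0.17 without that library. The oocyte genes as a whole were also highest in that library, at 1298 CPM for the sum of 26 listed genes against 543 to 948 CPM in the other estrus libraries, and the part of this in the value of Zp2 was not tested.

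Zp3 had the highest mean of the coat transcripts over all libraries, though not in FL1 in estrus. In estrus it measured 46.6, 57.3, 34.6, 27.4 and 29.4 CPM in ctrl and 68.6, 47.2, 28.2, 30.3 and 35.2 CPM in FL1. Zp1, which crosslinks the filaments that ZP2 and ZP3 form, measured 15.9, 21.9, 15.1, 12.5 and 9.49 CPM in ctrl and 19.2, 17.5, 14.3, 9.89 and 16.9 CPM in FL1. High and low ovaries were found in both lines, and the ranges lay largely on top of each other. The edgeR log2FC was 0.10 for Zp3 (95% interval -0.49 to 0.69, adjusted p = 0.893) and 0.06 for Zp1 (95% interval -0.47 to 0.59, adjusted p = 0.938). The interval of Zp3 thus still holds levels from 0.713 to 1.62 times that of ctrl.

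Astl measured 6.70, 7.61, 1.43, 6.02 and 5.98 CPM in ctrl and 10.6, 10.2, 2.72, 5.76 and 2.14 CPM in FL1 in estrus. Both lines held ovaries with high and with very low values, with a coefficient of variation of 63.6% in FL1. Its log2FC of 0.16 had a 95% interval from -0.94 to 1.27 (edgeR adjusted p = 0.911), so that even a difference of 1 on the log2 scale in favour of FL1 could not be told from 0 here.

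In diestrus, the phase of the mature corpus luteum, Fetub was again the only one of the 5 that passed the test, and it was stronger expressed in FL1 by about 2.5-fold. It measured 4.91, 3.97, 4.36, 5.10 and 5.38 CPM in ctrl and 9.88, 13.5, 13.1, 12.9 and 10.5 CPM in FL1. All FL1 ovaries lay above all ctrl ovaries, and both groups were tight, with coefficients of variation of 12.1% in ctrl and 13.8% in FL1 where counting error alone would give 17.2% and 11.1%. The mean was 12.0 ± 1.65 CPM (SD, n = 5) in FL1 and 4.74 ± 0.572 CPM (SD, n = 5) in ctrl. The log2FC was 1.33 (SE 0.19, 95% interval 0.90 to 1.76), with an edgeR adjusted p of 0.00112 over 13259 genes. In that comparison 545 genes passed, or 4.11% of those tested, 2.29% as stronger expressed in FL1, and 5.45% had groups without overlap. The exact permutation test, two-sided, gave p = 0.00794. The call held in each of 10 fits that left out 1 library, with log2FC between 1.28 and 1.39.

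The zona genes did not separate the lines in diestrus either. Zp3 measured 55.8, 30.7, 27.2, 42.8 and 24.1 CPM in ctrl and 41.9, 38.4, 36.2, 27.6 and 29.0 CPM in FL1. Zp2 measured 45.6, 30.8, 25.7, 47.0 and 18.9 CPM in ctrl and 39.1, 39.9, 31.5, 32.1 and 25.0 CPM in FL1. Zp1 measured 19.2, 10.9, 11.0, 18.4 and 11.8 CPM in ctrl and 15.5, 12.7, 12.1, 9.63 and 12.7 CPM in FL1. The ctrl group held both the highest and the lowest value of Zp2 and of Zp3, and its replicates 1 and 4 were high in all 3 genes. The edgeR log2FC was -0.07 for Zp3 (95% interval -0.55 to 0.41, adjusted p = 0.911), -0.01 for Zp2 (95% interval -0.51 to 0.50, adjusted p = 0.992) and -0.20 for Zp1 (95% interval -0.67 to 0.28, adjusted p = 0.683).

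Astl had its most uniform values in ctrl in diestrus. It measured 7.92, 6.84, 6.91, 8.39 and 5.99 CPM in ctrl and 6.01, 5.62, 4.88, 1.84 and 5.00 CPM in FL1. Of the 25 pairs of 1 FL1 and 1 ctrl ovary, the FL1 ovary was higher in 1, so the groups touched only at FL1 replicate 1 and ctrl replicate 5. The exact permutation test, two-sided, gave p = 0.0159, 1 of 20 such tests made for the 5 genes in 4 comparisons. The log2FC was -0.63 (SE 0.28, 95% interval -1.27 to 0.02), with an unadjusted edgeR p of 0.0415, and it did not pass over all genes (edgeR adjusted p = 0.257). Relative to the coat, Astl had 9.11 ± 1.91 counts per 100 zona counts in ctrl and 5.74 ± 1.82 in FL1 in diestrus (SD, n = 5 each), with ranges of 6.57 to 10.9 and 2.65 to 7.50 that overlapped. In estrus the same ratio was 6.79 ± 3.13 in ctrl and 5.98 ± 2.83 in FL1. This ratio was chosen after the values of Astl had been seen and was not tested.

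**Figure D2:**
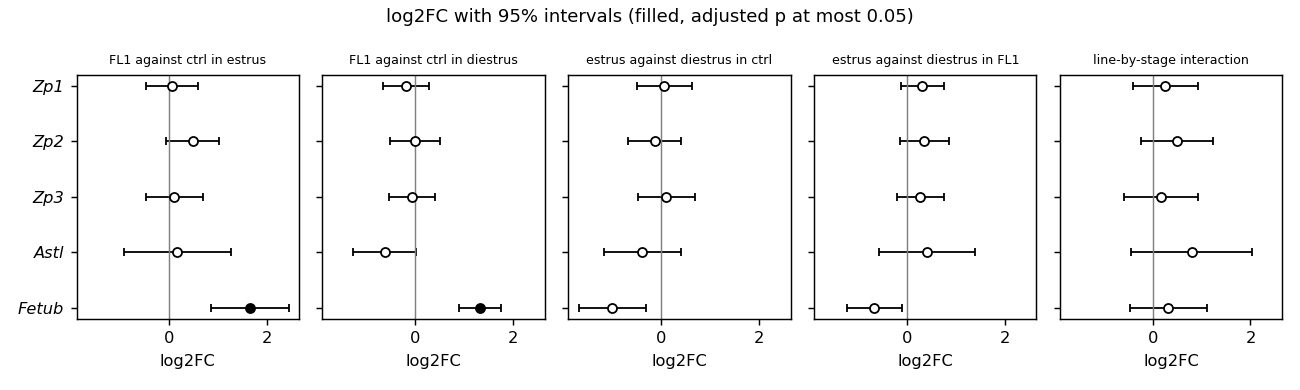
log2FC of the 5 genes (x axis) with 95% intervals in the 4 comparisons and for the interaction of line and stage, with filled points where the adjusted p is at most 0.05. Only Fetub in FL1 against ctrl is filled, at 1.65 in estrus and 1.33 in diestrus, and the intervals of the zona genes include 0 in all 5 panels.

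Stage was compared within each line, in the same 20 libraries that served the comparisons of the lines. In ctrl, Fetub had a mean of 2.32 CPM in estrus and 4.74 CPM in diestrus, and each estrus ovary lay below each diestrus ovary. Of all genes tested in that line, 4.52% had stages without overlap. The log2FC of estrus against diestrus was -1.0 (SE 0.30, 95% interval -1.70 to -0.31) with p = 0.00794 in the exact permutation test, two-sided, but it did not pass over 13334 genes (edgeR adjusted p = 0.103), of which 2.85% passed. In FL1 the means were 7.48 and 12.0 CPM, the groups overlapped in 2 of 25 pairs, and the log2FC was -0.68 (SE 0.24, 95% interval -1.24 to -0.11; edgeR adjusted p = 0.0698). In that line 15.9% of the genes tested passed between stages.

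The estimate for Fetub between the stages pointed the same way in both lines, and whether it passed depended on the fit. With all 20 libraries in 1 edgeR fit the adjusted p in ctrl was 0.0361, and in FL1 it was 0.0364 without FL1 estrus replicate 5, the highest of that group. The interaction of line and stage was 0.31 for Fetub (95% interval -0.48 to 1.11, edgeR adjusted p = 0.795), so the line difference in estrus could be up to 1.11 larger or 0.48 smaller on the log2 scale than in diestrus. Of 14154 genes, 8 passed for the interaction, or 0.0565%, and none of the 5 members was among them, while 1654 genes had an unadjusted edgeR p under 0.05.

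None of the zona genes passed between the stages. In ctrl the edgeR log2FC of estrus against diestrus was 0.06 for Zp1, -0.13 for Zp2 and 0.10 for Zp3, with adjusted p from 0.856 to 0.943. In FL1 it was 0.31 for Zp1, 0.35 for Zp2 and 0.27 for Zp3, with adjusted p from 0.284 to 0.430. Without FL1 estrus replicate 1, the library rich in oocyte transcripts, these became 0.05 for Zp2 and 0.02 for Zp3. Astl had a log2FC of -0.39 in ctrl (edgeR adjusted p = 0.667) and 0.40 in FL1 (adjusted p = 0.574), and the interaction of 0.79 had a 95% interval from -0.46 to 2.03 (adjusted p = 0.631).

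Setting Fetub against the coat within each library removes the scaling of the libraries from the comparison. The summed CPM of Zp1, Zp2 and Zp3 was 84.8 ± 23.3 in ctrl and 100.4 ± 37.6 in FL1 in estrus and 84.0 ± 28.8 in ctrl and 80.7 ± 13.1 in FL1 in diestrus (SD, n = 5 each). For each Fetub count there were 36.4 zona counts in ctrl in estrus, 13.5 in FL1 in estrus, 16.8 in ctrl in diestrus and 6.69 in FL1 in diestrus, as geometric means. On the log2 scale the ratio of Fetub to the zona genes was -5.19 ± 0.77 and -3.76 ± 0.47 in estrus and -4.07 ± 0.50 and -2.74 ± 0.32 in diestrus, ctrl before FL1. The highest ctrl ovary stayed below the lowest FL1 ovary in both stages, at -4.27 against -4.11 in estrus and -3.33 against -3.28 in diestrus, so the gaps were narrow. The lines differed by 1.43 in estrus and by 1.33 in diestrus, and the stages overlapped in either line. Since it combines genes already tested, the ratio was given no test of its own.

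**Figure D3:**
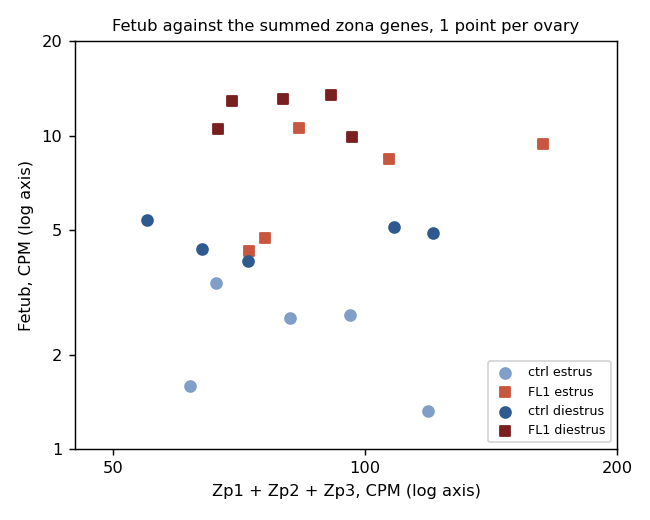
Fetub CPM (y axis) against the summed CPM of Zp1, Zp2 and Zp3 (x axis), both on log axes, 1 point per ovary, circles for ctrl and squares for FL1. The 4 groups cover much the same range of the zona sum, 54.9 to 163 CPM over all ovaries, and differ in height, from 1.32 CPM in ctrl in estrus to 13.5 CPM in FL1 in diestrus.

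The composition of the coat transcripts was steady. Zp3 made up 43.2 ± 2.84% of the zona counts, Zp2 40.1 ± 3.94% and Zp1 16.7 ± 2.54% (SD, n = 20). In estrus Zp2 made up 36.8 ± 2.66% in ctrl and 42.4 ± 4.20% in FL1 (SD, n = 5), with ranges of 33.4 to 39.8% and 37.6 to 47.2%, and Zp3 made up 45.6 ± 3.42% and 41.4 ± 2.13%. These ranges overlapped. In diestrus the shares of Zp3 were 43.0 ± 2.49% and 42.9 ± 2.05%.

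Ovaries that were high in 1 zona gene were high in the others. After the mean of each group was removed, Zp2 and Zp3 had Pearson's r = 0.90 and Spearman's rho = 0.91 over 20 ovaries, with a permutation p of 1e-05, the smallest that 100000 permutations within groups can give (adjusted p = 0.0001 over 10 pairs of genes). Zp1 and Zp3 had r = 0.83 and rho = 0.84 (permutation adjusted p = 0.0004 and 0.00065), and Zp1 and Zp2 had r = 0.68 and rho = 0.71 (permutation adjusted p = 0.0162 and 0.0101). Without the 2 ovaries farthest from the median of the first-named gene, r was 0.87, 0.85 and 0.70. Each of these pairs had a positive r within each of the 4 groups.

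Astl and Fetub followed the coat less or not at all. Zp3 and Astl had r = 0.54 and rho = 0.57 (permutation adjusted p = 0.0692 and 0.0286, r = 0.49 without the 2 farthest ovaries), so that the correlation passed by rank only, as it did for Zp2 and Astl (r = 0.44, rho = 0.52, permutation adjusted p = 0.108 and 0.0365, and r = 0.33 without the 2 farthest). The 4 pairs with Fetub had r between -0.06 and 0.21, with permutation adjusted p of 0.571 or more, and each had a positive r in 2 of the 4 groups. Counts of Fetub and Astl were low, with counting errors of 14.5% and 15.5% of the mean against 6.07% for Zp3, and low counts pull such correlations toward 0.

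**Figure D4:**
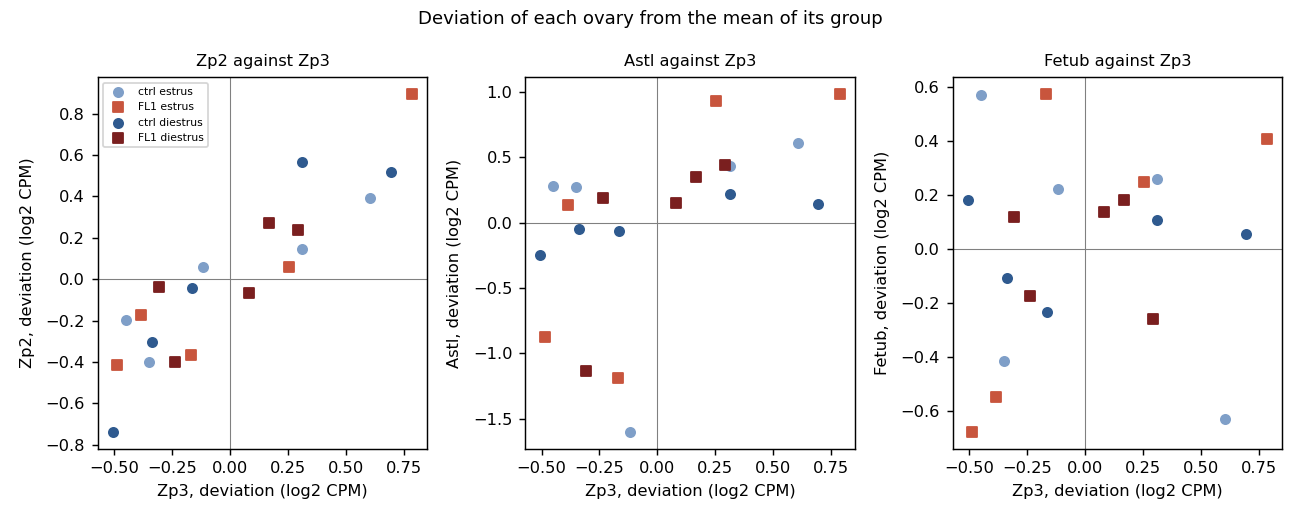
Deviation of Zp2, Astl and Fetub (y axes) from their group means against that of Zp3 (x axes), in log2 CPM, 1 point per ovary, circles for ctrl and squares for FL1. Zp2 rises with Zp3 along a narrow band (r = 0.90), the points of Astl are broader with 4 ovaries far below (r = 0.54), and those of Fetub show no slope (r = 0.14).

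Among 14153 other genes, those most like Zp3 in these deviations were Fbxw24 (r = 0.94), Zp2 itself (0.90), Rhpn2 (0.90), Zar1 (0.89), Padi6 (0.89), Gdf9 (0.88), Cpa1 (0.87) and Eif4e1b (0.86). Zar1 and Padi6 are maternal effect genes of the oocyte, Gdf9 encodes an oocyte growth factor and Eif4e1b an oocyte form of the cap-binding protein. Zp1 ranked 15 in this order, Astl 569 and Fetub 4613. Of 25 listed oocyte genes with usable counts, 16 were among the 100 genes most like Zp3, and their median r was 0.75 against -0.01 over all genes. All these values share the same 20 libraries.

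Those most like Fetub were Cmss1 (r = 0.79), Rpl29 (0.75), Cenpi (0.75), Gm9701 (0.73), Prdx4 (0.73), Cbs (0.72), Gm17108 (0.72) and Mpp6 (0.71). Cbs encodes cystathionine beta-synthase and Prdx4 a peroxiredoxin of the secretory pathway, while Rpl29, a ribosomal protein gene with processed copies elsewhere in the genome, has uncertain counts. Zp1 ranked 3467 among the genes like Fetub, Zp2 4342, Zp3 4567 and Astl 8308. None of the 25 oocyte, 9 granulosa and 9 luteal genes was among the 100 most like Fetub. These are 100 of 14153 genes, so finding none from such short lists would be usual. The median r was 0.24 for the oocyte, 0.51 for the granulosa and -0.47 for the luteal genes, against 0.01 over all genes. It was 0.36 for 6 other genes with a zona pellucida domain and 0.29 for 7 transcription factors of the zona genes.

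The other oocyte genes were counted beside the coat. In estrus none of 24 oocyte genes tested passed between the lines by edgeR, where 2.33% of all genes did, although 20 had a log2FC above 0 and their median was 0.24 against -0.01 over all genes. In diestrus 4 of 23 were above 0, with a median of -0.26 against -0.01. Where 4.11% of all genes passed, 2 of the 23 did, both weaker expressed in FL1. These were Bcl2l10, an oocyte member of the BCL2 family (log2FC -0.94, adjusted p = 0.0235), and Rfpl4, an oocyte RING finger protein (log2FC -0.62, adjusted p = 0.0428). Between the stages none passed in ctrl, and in FL1 Bmp15, the partner of GDF9 (log2FC 0.81, edgeR adjusted p = 0.0278), and Uchl1, a deubiquitinase (log2FC 0.80, edgeR adjusted p = 1.3e-05), were stronger expressed in estrus, where 21 of 24 were above 0 with a median of 0.41. These 2 of 24 compare with 15.9% of all genes that passed between the stages in FL1, 7.42% as stronger expressed in estrus. In ctrl 2.85% of all genes passed between the stages. The zona genes made up 12.2 ± 2.67% of the summed CPM of the 26 oocyte genes in ctrl and 11.9 ± 0.989% in FL1 in estrus, and 12.4 ± 1.64% and 14.0 ± 0.860% in diestrus (SD, n = 5 each).

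None of 7 listed transcription factors, those that act in the oocyte upstream of the zona genes and their partners, passed in any comparison. Of all genes tested, 2.33% passed between the lines in estrus and 4.11% in diestrus. Between the stages 2.85% passed in ctrl and 15.9% in FL1, and for the interaction 0.0565% did. In estrus the log2FC between the lines was 0.57 for Figla (edgeR adjusted p = 0.686), 0.49 for Nobox (0.654), -0.50 for Lhx8 (0.516), -0.22 for Sohlh1 (0.866), 0.11 for Taf4b (0.894), -0.09 for Tcf3 (0.770) and -0.36 for Tcf12 (0.0533). In diestrus it was 0.35 for Figla (edgeR adjusted p = 0.849), -0.21 for Nobox (0.712), -0.42 for Lhx8 (0.566), -0.63 for Taf4b (0.111), 0.03 for Tcf3 (0.913) and -0.04 for Tcf12 (0.831), and Sohlh1 had too few counts to be tested. Tcf12, which encodes a widely expressed partner of such factors, came closest to the threshold in estrus. Of 12 genes of the egg surface and the cortical granules, none passed between the lines in either stage, beside the shares of all genes given above. Their median log2FC was 0.10 in estrus and -0.01 in diestrus, where the largest estimate was 1.13 for Rab27a (edgeR adjusted p = 0.0993). Between the stages none of the 12 passed in ctrl. In FL1, where 15.9% of all genes passed, 1 passed as stronger and 2 as weaker expressed in estrus.

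Relatives of the members were looked at by family. Of 11 other genes with a zona pellucida domain, 5 were tested between the lines in estrus and 4 in diestrus. Where 2.33% and 4.11% of all genes passed, only Zpld1, which encodes a protein with this domain outside the egg coat, passed in each. Its mean was 111 CPM in FL1 and 1.05 CPM in ctrl in estrus and 197 and 3.90 CPM in diestrus, with log2FC of 6.71 and 5.71 (edgeR adjusted p = 6.71e-07 and 5.52e-07). In FL1, Zpld1 (log2FC -0.83, edgeR adjusted p = 0.0125) and the endothelial receptor gene Eng (-0.50, 0.0374) were weaker and Tgfbr3 (0.47, 0.00705), a TGF-beta coreceptor gene, was stronger expressed in estrus than in diestrus, in the comparison where 15.9% of all genes passed. In ctrl none of the 4 tested passed between the stages, where 2.85% of all genes did.

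In the fetuin and cystatin family 3 of 9 genes had counts enough. None passed between the lines, where 2.33% of all genes passed in estrus and 4.11% in diestrus. Ahsg, which encodes fetuin-A and lies next to Fetub, measured 3.08, 1.82, 1.04, 3.01 and 0.703 CPM in ctrl and 2.79, 5.10, 2.41, 6.20 and 4.70 CPM in FL1 in estrus. In diestrus it measured 2.17, 0.410, 1.20, 0.658 and 3.23 CPM in ctrl and 4.15, 3.01, 3.31, 1.98 and 2.50 CPM in FL1. The FL1 values were higher on the whole, and the groups overlapped in both stages. The log2FC of Ahsg was 1.09 (SE 0.42, edgeR adjusted p = 0.216) in estrus and 0.94 (SE 0.47, adjusted p = 0.312) in diestrus. Cst3, the cystatin C gene, had -0.13 and -0.14, and Cstb, the cystatin B gene, had 0.21 and -0.05, with edgeR adjusted p of 0.307 or more. Between the stages Cstb was stronger expressed in estrus in FL1 (log2FC 0.57, edgeR adjusted p = 0.000302), and none of the 3 passed in ctrl. Of all genes tested, 15.9% passed between the stages in FL1 and 2.85% in ctrl. Of the other astacin proteases only Bmp1, a procollagen protease gene, was tested. It had a log2FC of -0.16 in estrus and -0.35 in diestrus between the lines (edgeR adjusted p = 0.575 and 0.122), and it was stronger expressed in estrus in FL1 (0.54, edgeR adjusted p = 0.00661).

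Since the liver is the main source of fetuin-B, liver genes were read in the same libraries. Alb, the gene of serum albumin, was at 0 in every ctrl library in estrus and every FL1 library in diestrus, and reached 24 counts, or 2.57 CPM, in 1 FL1 library in estrus. Ttr, Fga and Fgb stayed at 0 to 7 counts in all libraries. Apoa1, the apolipoprotein gene of high density lipoprotein, was present at 38.6 to 211 CPM. Neither it nor Serpina1b, the only other liver gene tested, passed between the lines. Of all genes, 2.33% passed in estrus and 4.11% in diestrus. Both estimates were above 0 in estrus, with a log2FC of 0.66 for Apoa1 and 0.89 for Serpina1b (edgeR adjusted p = 0.213 and 0.496). In diestrus they were 0.01 and -0.65 (edgeR adjusted p = 0.994 and 0.676). The sum of the oviduct genes was 0.522 to 1.82 CPM in ctrl and 2.36 to 5.25 CPM in FL1 in estrus and 0.922 to 2.26 CPM in ctrl and at most 4.87 CPM in FL1 in diestrus. Of 9 granulosa and 9 luteal genes tested in diestrus, 1 each passed, both stronger expressed in FL1, as 2.29% of all genes did. These were Foxl2 (log2FC 0.53, edgeR adjusted p = 0.0132), a granulosa factor, and Lhcgr (log2FC 1.43, edgeR adjusted p = 0.0210), the LH receptor. The lists had median log2FC of 0.04 and 0.02, against -0.01 over all genes, with 7 and 5 genes above 0. The study's own qPCR gave an estimate below 0 for Foxl2 in diestrus. In estrus 0 of 9 granulosa and 0 of 9 luteal genes passed, where 2.33% of all genes did. Of the listed genes of theca and stroma, fat, blood and surface epithelium, 6, 2, 5 and 5 were tested between the lines. Upk3b, a mesothelial and surface epithelial gene, passed in estrus (log2FC 0.69, edgeR adjusted p = 0.0468), where 2.33% of all genes did. The hemoglobin gene Hba-a2 passed in diestrus (log2FC 4.77, edgeR adjusted p = 0.00101), where 4.11% of all genes did. Its counts are uncertain beside its near-identical copy Hba-a1. No other gene of these lists passed between the lines. The median log2FC of the 4 lists in that order was -0.22, 0.81, 0.29 and 0.68 in estrus. In diestrus it was -0.14, 0.42, 0.42 and -0.23. The part of any of these tissues in the level of Fetub was not tested. Fetub was lower in estrus than in diestrus on average in both lines. Between the stages in FL1, 8 of 9 luteal, 4 of 9 granulosa and 4 of 5 blood genes passed as weaker expressed in estrus. Of all genes tested, 8.49% did. As stronger, 4 of 5 surface epithelium and 1 of 4 fat genes passed, against 7.42% of all genes. Of 6 theca and stroma genes, 2 passed as stronger and 1 as weaker. In ctrl, 1 of 9 luteal and 1 of 9 granulosa genes passed as weaker in estrus. Of 6 theca and stroma genes there, 1 passed each way, and no blood, fat or surface epithelium gene passed. Of all genes, 2.85% passed in ctrl.

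The genes around Fetub were read as well. Of the 10 tested genes on each side along chromosome 16, none passed between the lines in either stage by edgeR, with a median log2FC of 0.06 in estrus and 0.00 in diestrus. Of all genes tested, 2.33% passed in estrus and 4.11% in diestrus, so few calls among so few genes would be usual. Rtp4 lay farthest below 0, with a log2FC of -0.87 in both stages (edgeR adjusted p = 0.0667 in estrus and 0.122 in diestrus). The nearest on the left was Ahsg, with the values given above, and the nearest on the right in both stages was Eif4a2, a translation factor gene. Between the stages Lppos was weaker expressed in estrus in ctrl (log2FC -0.80, edgeR adjusted p = 0.0408), and Masp1 and Gm31814 were weaker expressed in estrus in FL1 (-0.56 and -1.22, edgeR adjusted p = 0.0487 and 0.0393). Of all genes tested, 2.85% passed between the stages in ctrl and 15.9% in FL1.

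**Figure D5:**
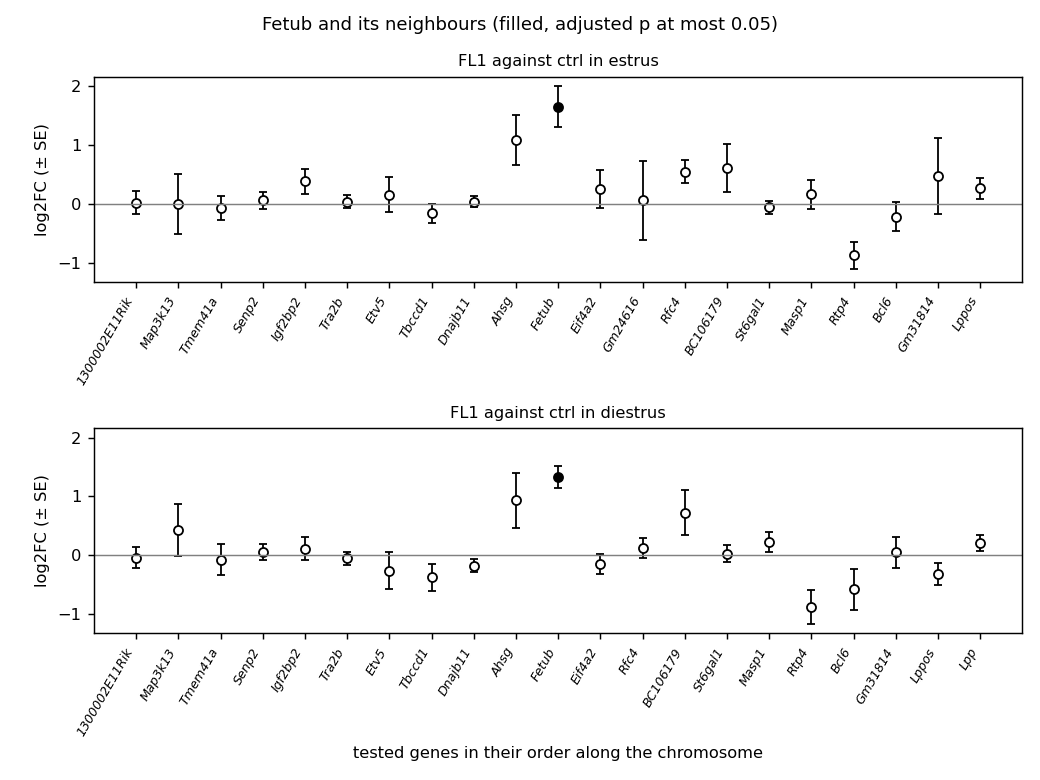
log2FC of FL1 against ctrl with SE (y axis) for Fetub and the 10 tested genes on each side in their order along the chromosome (x axis), in estrus above and diestrus below. Filled points have an adjusted p of at most 0.05, which Fetub alone reaches, at 1.65 and 1.33, and its neighbour Ahsg is next highest at 1.09 and 0.94.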

How the data were processed

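Ovarian RNA of 20 mice, 5 per line and stage, was sequenced from the 3' end (QuantSeq forward kit, Illumina HiSeq). Trimmed reads were aligned by the authors to GRCm38 with STAR, and the deposited values are raw counts per Ensembl gene, 1 table per library, neither normalized nor pooled. The labels name Cuffdiff besides STAR. The counting tool and its strand setting are not given in the sources used here. No molecular identifiers are named, so counting errors are lower limits.

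Groups and replicate numbers came from the titles. The members and lists were chosen with earlier results of these data known. GENCODE M21 (GRCm38) named 54809 of the 54838 genes and left 29 unnamed. Lines were compared within a stage and stages within a line (10 libraries each), and the interaction was tested in all 20, by the quasi-likelihood test of edgeR 4.0.16 in R 4.3.3 with TMM and filterByExpr at a minimum count of 10. The Benjamini-Hochberg adjustment covered all genes tested, with a threshold of 0.05. SE is the absolute log2FC divided by the root of F, and intervals are 95%, from t on 8 residual degrees of freedom, or 16 for the interaction. The edgeR test uses more degrees of freedom, so an interval can hold 0 at an unadjusted p under 0.05. The replicates are separate animals. Single genes were also compared by exact permutation of CPM over 252 splits. Correlations used log2 CPM with a prior count of 2, and the log2 ratio of Fetub to the zona genes used counts plus 0.5. The fits were tested on simulated data. Over 40 pairs within groups, no 2 libraries agreed within sampling noise.

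Named genes were the members, list genes that passed, all tested genes of the regulator families, the 8 genes most like Zp3 and Fetub, and those that passed among the 10 tested genes on each side of Fetub. The liver genes, Ahsg, Eif4a2 and the ratio of Astl to the coat were named after their values were seen. Alternatives were DESeq2 1.42.0 and its size factors, limma-voom (limma 3.58.1), other filters, 1 fit of all libraries, the replicate block and each library left out. Values outside R were computed in Python 3.11.15 (pandas 2.3.3, numpy 2.4.6, scipy 1.17.1) and drawn in matplotlib 3.10.9.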

Additional observations from a re-analysis of the deposited data

Results flagged for a closer look

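Of 24 groups of 5 values examined, 3 had 1 library standing apart from the other 4 by more than Dixon's limit of 0.71 of the range, where chance gives about 1 in 20. Zp2 measured 75.5 CPM in FL1 replicate 1 in estrus, and the next library had 42.1 CPM. That library also had the highest zona sum (163 CPM) and the highest sum of oocyte genes (1298 CPM) of all 20. Astl measured 1.43 CPM in ctrl replicate 3 in estrus, where the next library had 5.98 CPM, and 1.84 CPM in FL1 replicate 4 in diestrus, where the next had 4.88 CPM. These values of Astl rest on 11 and 13 counts. In the same libraries the zona sum was 81.2 and 69.4 CPM, within the range of its group.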

How the results depend on the processing

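Fetub between the lines in diestrus kept its direction and its call in all 7 alternatives (log2FC 1.32 to 1.34) and in 10 fits without 1 library. In estrus the direction held throughout (1.49 to 1.84 without 1 library), but the call was lost with limma-voom (1.56, adjusted p = 0.0613) and with the replicate block (1.61, adjusted p = 0.0920), besides the 4 left-out libraries named above. Between the stages Fetub passed in ctrl with 1 fit of all 20 libraries (-0.99), and in FL1 with limma-voom (-0.77), with genes of at least 1 count in total (-0.69) and without FL1 estrus replicate 5 (-0.85 to -0.52 without 1 library). With at least 10 counts in every library, Fetub could not be tested between the lines in estrus, between the stages in ctrl or for the interaction, since ctrl libraries held 8 and 9 counts. The zona genes and Astl passed in 0 of 376 other fits. Their signs were not fixed where estimates were near 0. Astl in estrus was -0.023 with limma-voom and -0.12 to 0.39 without 1 library. Zp2 in diestrus was 0.040 with limma-voom, 0.048 with the replicate block and -0.15 to 0.14 without 1 library. Without 1 library, Zp1 and Zp3 ran from -0.059 to 0.22 and from -0.15 to 0.28 between the lines in estrus, and Zp3 from -0.18 to 0.15 in diestrus. Between the stages in ctrl, Zp1 ran from -0.11 to 0.20, Zp2 from -0.28 to 0.012 and Zp3 from -0.074 to 0.32, and the interaction of Zp3 from -0.082 to 0.34.

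Genes that passed between the lines in estrus numbered 311, against 531 in 1 fit of all libraries, 477 with at least 1 count in total, 670 by DESeq2 and 175 to 418 without 1 library. In diestrus they numbered 545, against 846 with at least 1 count in total, 892 by DESeq2 and 349 to 594 without 1 library. Between the stages in ctrl they numbered 380, against 909 in 1 fit, 768 by DESeq2 and 176 to 516 without 1 library, and for the interaction 8, against 17 with at least 1 count in total, 152 by DESeq2, 3 by limma-voom and 0 to 15 without 1 library. The cause of these differences was not tested. Same-numbered libraries are different animals and correlated at -0.10 to 0.13, so the numbers do not pair them. The replicate block gave 230, 498, 259, 2020 and 12 calls in the 4 comparisons and the interaction. Low counts limit Fetub in ctrl in estrus, where counting error alone was 23.8% of the mean.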
